A study of Mus musculus with 2 samples.

Results

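A large intron of Sfmbt2, a Polycomb group gene on the plus strand of chromosome 2, carries a cluster of miRNA hairpins of the families miR-297, miR-466, miR-467 and miR-669. The small RNA tags of this cluster were compared between J1 mESCs treated with the MEK inhibitor PD0325901 (PD) and control cells. The members were the 71 hairpins with a miRNA name that GENCODE M21 lists on the plus strand between 10466663 and 10518279 of chromosome 2 (GRCm38), out of 1174 such hairpins in the whole annotation. A deposited tag, which is a distinct read sequence with its number of reads, was counted for the cluster if it matched one of these hairpins perfectly over its whole length, and 508 tags did so. J1 cells are an established mouse ESC line. Medium with 1000 U/mL of LIF, which keeps mESCs undifferentiated, was used in both groups, and the cells received 1 μM PD or the same volume of DMSO for 24 h. Each library was made from the pooled RNA of 3 experiments, which left 1 library per treatment and no replicates. No test between treatments was therefore possible. Each interval below is an exact 95% interval (Clopper-Pearson) that covers only the counting error of reads, which are not independent molecules, and leaves out the variation between cultures and libraries.

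A miRNA hairpin is cut from its primary transcript by Drosha and DGCR8 and then by Dicer, which releases a duplex of a 5p and a 3p strand. Usually one strand of this duplex is loaded into an Argonaute protein, and its seed, which is bases 2 to 8 from the 5′ end, pairs with target mRNAs. Sfmbt2 is an imprinted gene that is transcribed from the paternal allele in early embryos and in the placenta, and the miRNAs of this rodent-specific intronic cluster are known from mESCs and trophoblast. Many of its hairpins are near copies of each other, so that one mature sequence can come from several of them.

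All 71 hairpins lay between exon 10 and exon 11 of the transcript Sfmbt2-201, in an intron of 62472 bases that spans chr2:10461473-10523944. The gene itself runs from 10370510 to 10595253. The hairpins covered 51617 bases, began 5190 bases into the intron and ended 5665 bases before its end. The cluster held 29 hairpins of miR-669, 23 of miR-466, 14 of miR-467 and 5 of miR-297. Successive hairpins started a median of 298.5 bases apart. In the middle of the cluster a block of a miR-467, a miR-466 and a miR-669 hairpin recurred, with the 10 copies of Mir467a a median of 2462 bases apart. The 71 hairpins had 53 different sequences, and 9 copies of Mir669a were identical over their 87 bases. Each of the 71 hairpins was matched by at least 1 tag, but 32 of them had reads of tags that matched no other named hairpin.

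**Figure D1:**
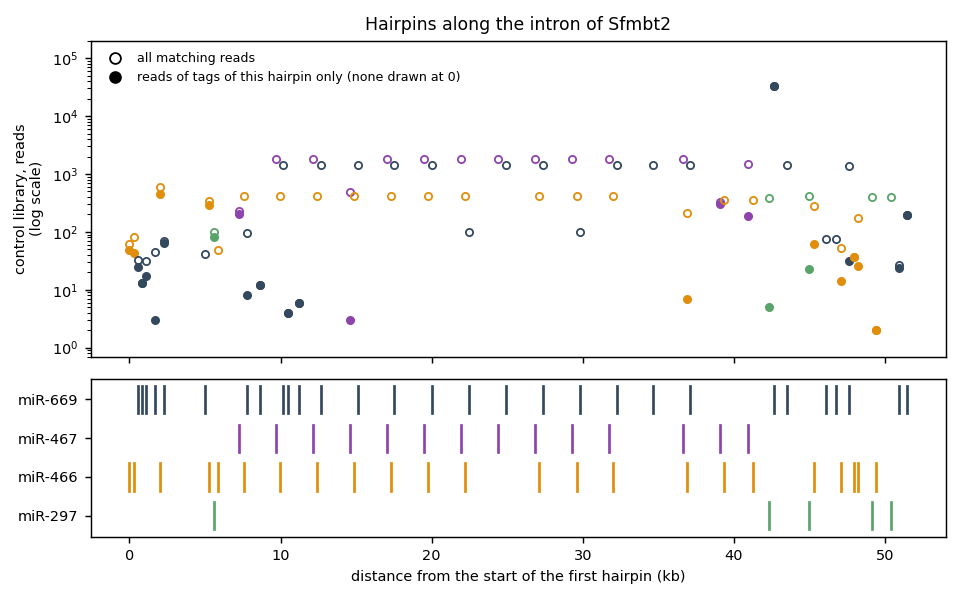
Hairpins of the 4 families along the intron of Sfmbt2, as distance in kb from the start of the first hairpin (lower panel), and the reads that matched each hairpin in the control library on a log scale (upper panel, colours as in the lower panel). Open points count all matching reads and filled points only reads of tags that matched this hairpin and no other named hairpin; the repeated copies in the middle have almost no filled points, and Mir669c stands alone at 33612 reads.

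The sequences that carry the results are given as the most frequent tag of each arm in both libraries together, 5′ to 3′ and with T for U, with the seed in capitals. Hairpin arms with the same set of tags were treated as 1 arm and named after all their hairpins. The 5p arms with at least 10 reads per 1000000 in either library, or a counting interval above 1, had these leading tags.
miR-669c-5p: aTAGTTGTgtgtggatgtgtgtat
miR-669a/669p-5p: aGTTGTGTgtgcatgttcatgtct
miR-669o-5p: tAGTTGTGtgtgcatgtttatgt
miR-467a/467b-5p: tAAGTGCCtgcatgtatatgcg
miR-467c-5p: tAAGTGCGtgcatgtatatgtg
miR-467d-5p: aTAAGTGCgcgcatgtatatgc
miR-467e-5p: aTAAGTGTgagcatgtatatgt
The most abundant 3p arms were rich in A and C.
miR-669a/669o-3p: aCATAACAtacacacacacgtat
miR-467a/467d-3p: aTATACATacacacacctacac
miR-466f-2-3p: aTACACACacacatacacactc
3p arm of Mir466b, Mir466c and Mir466e: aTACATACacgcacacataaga
miR-297a/297b/297c-3p: aTATACATacacacatacccat
Levels are given as reads per 1000000 deposited reads of the library (RPM). Among arms with at least 1 RPM, the leading 5p tags of the cluster had a median of 70.8% G and T (15 sequences, from 54.5% to 83.3%) and the leading 3p tags a median of 77.3% A and C (19 sequences, from 66.7% to 86.4%). Leading tags of other miRNAs had medians of 57.9% G and T in 255 5p sequences and 47.6% A and C in 210 3p sequences. The place of both strands is shown for the hairpin of the most abundant arm, with the leading 5p and 3p tags in capitals.
Mir669c, chr2:10509296-10509404, plus strand: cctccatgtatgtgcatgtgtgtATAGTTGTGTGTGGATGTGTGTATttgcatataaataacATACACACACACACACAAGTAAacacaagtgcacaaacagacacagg

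The control library held 18870345 reads and the PD library 20944808, and 3 reads corresponded to 0.159 and 0.143 RPM. The share of reads with 20 to 24 nt was 63.0% in control and 52.0% in PD, and that with 28 to 32 nt 7.11% and 17.0%. Reads that matched any named miRNA hairpin made up 11.6% and 10.1%. Hairpins that mark mouse ESCs (the miR-290 and miR-302 clusters) all had reads, 10 of 10, and summed to 33073 and 28378 RPM. Of the lists for other cell types, the neural hairpins (6 of 6 with reads) had 278 and 493 RPM, the muscle hairpins (5 of 5) 161 and 167 RPM, those of fibroblasts and mesenchyme (5 of 5) 209 and 179 RPM, those of blood (2 of 3) 16.5 and 15.9 RPM and the liver hairpin 2.91 and 2.01 RPM. The part of these differences in the results was not tested.

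The cluster gave 40342 reads in control and 50969 in PD, or 2138 and 2433 RPM, a ratio of 1.14 (95% interval 1.12 to 1.15). Its share of the miRNA-matching reads was 1.85% in control and 2.41% in PD. The ratio differed between the 2 arms. The 5p arms summed to 1870 RPM in control and 2207 RPM in PD, a ratio of 1.18 (1.16 to 1.20), and the 3p arms to 264 and 223 RPM, a ratio of 0.844 (0.811 to 0.879). The 5p strands thus made up 87.6% of the arm reads in control (87.3% to 87.9%) and 90.8% in PD (90.6% to 91.1%). The median ratio of the 525 miRNA arms that reached 1 RPM was 0.890, or -0.17 on the log2 scale. Against this shift the 5p sum stood further above the typical miRNA, and the 3p sum stood close to it. A scaling to other totals moves every ratio by the same factor, from 1.07 for TMM to 1.21 for reads of 20 to 24 nt, and under the last of these the 3p sum was at 1.02 (0.982 to 1.06) and no longer below the control. The DESeq2 size factors came out as 1 for both libraries, so that ratios under them are those of the unscaled reads.

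Without miR-669c-5p the cluster had 357 RPM in control and 349 RPM in PD, a ratio of 0.979 (0.947 to 1.01). This value depended on the scaling, and the ratio was 1.05 (1.01 to 1.08) by TMM, 1.12 (1.09 to 1.16) for miRNA-matching reads and 1.19 (1.15 to 1.23) for reads of 20 to 24 nt. The remaining 5p arms had 88.9 and 123 RPM, a ratio of 1.38 (1.30 to 1.47), and the 5p share among the remaining arm reads was 25.2% (24.1% to 26.2%) in control and 35.5% (34.4% to 36.6%) in PD.

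By family, the 5p arms of miR-467 had the highest ratio. They had 59.0 RPM in control and 87.3 RPM in PD, a ratio of 1.48 (1.37 to 1.60). The 5p arms of miR-669 had 1801 and 2109 RPM, a ratio of 1.17 (1.15 to 1.19), and without miR-669c-5p they had 19.8 and 24.9 RPM, a ratio of 1.26 (1.10 to 1.44). The 5p arms of miR-466 (8.48 and 8.69 RPM, ratio 1.02, 0.824 to 1.28) and of miR-297 (2.38 and 2.15 RPM, ratio 0.901, 0.583 to 1.39) were sparse, and their intervals included 1. The 3p arms of all 4 families were lower in PD. They went from 82.4 to 66.1 RPM for miR-466 (0.802, 0.745 to 0.863), from 83.4 to 71.6 RPM for miR-669 (0.858, 0.799 to 0.922), from 24.7 to 21.2 RPM for miR-297 (0.859, 0.752 to 0.980) and from 73.6 to 64.1 RPM for miR-467 (0.872, 0.808 to 0.940). Scaled to reads of 20 to 24 nt, the 3p sums of miR-297, miR-467 and miR-669 were at 1.04, 1.06 and 1.04, and that of miR-466 at 0.971, with intervals that included 1. The 5p sum of miR-467 stayed above 1 under each of the 5 scalings. It was lower, at 1.26 (1.14 to 1.40), when tags that matched any annotated transcript outside the cluster hairpins were left out. The tags left out included those shared with hairpins of the same intron that have no miRNA name. With only tags of transcripts outside the intron left out, a setting chosen after seeing the data, the 5p sum of miR-467 stayed at 1.48 (1.37 to 1.60).

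**Figure D2:**
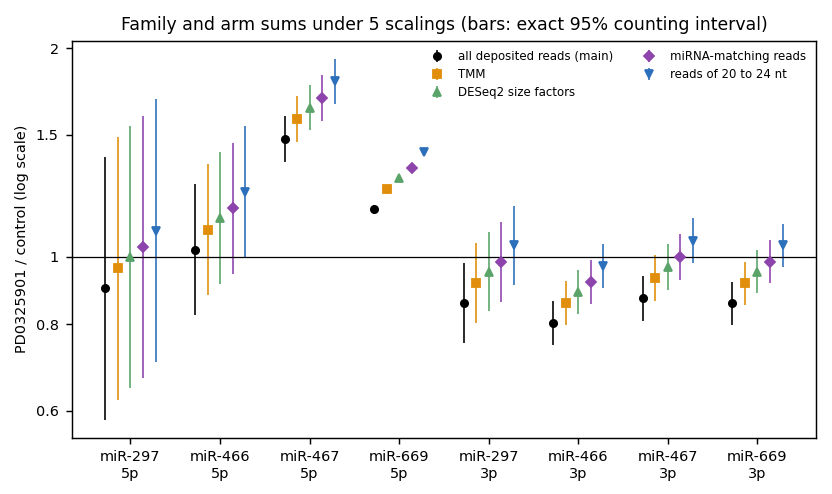
Ratio of PD to control for the summed reads of each family and arm (log scale), under 5 scalings of the libraries, with exact 95% counting intervals. The 5p sums of miR-467 and miR-669 lie above 1 under all 5 scalings, from 1.48 and 1.17 upward, while the 3p sums lie between 0.802 and 0.872 when scaled to all deposited reads and close to 1 when scaled to reads of 20 to 24 nt.

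Of the 71 hairpins, 65 arms with different tags were found (31 5p and 34 3p). Of these, 18 arms stood for several hairpins. At least 1 RPM in either library was reached by 40 arms (17 5p and 23 3p). An arm was called higher or lower in PD if its RPM differed by at least 1.5-fold. This called 6 of the 40 higher and 3 lower, where 5.9% of all 525 miRNA arms were called higher and 13.7% lower. Of the 17 5p arms, 5 were called higher and 0 lower, and of the 23 3p arms 1 was called higher and 3 lower. The counting interval lay above 1 in 6 of the 40 arms and below 1 in 7, where it did so in 11.2% and 38.7% of all miRNA arms. Several arms of a family share tags, so these counts are not of independent arms. The median ratio was 1.12 for the 17 5p arms and 0.868 for the 23 3p arms, against 0.901 for 267 5p arms and 0.874 for 218 3p arms of other miRNAs.

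**Figure D3:**
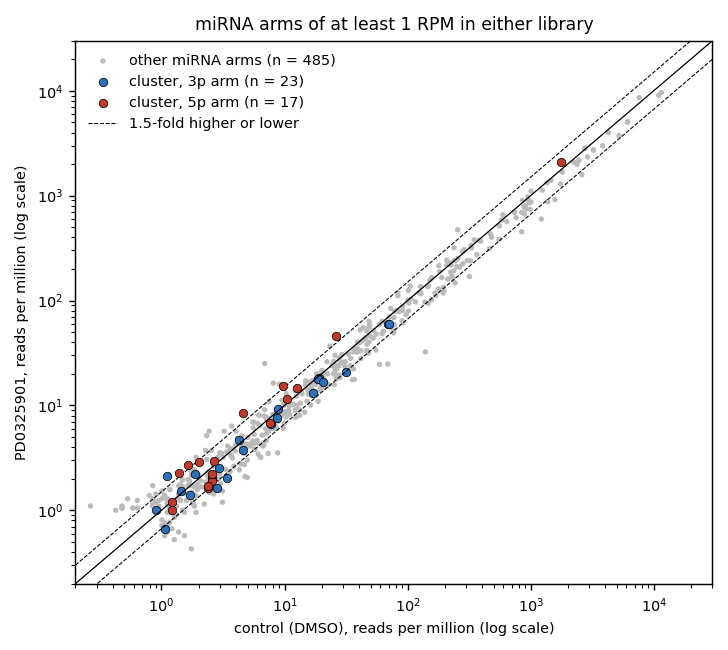
Level of each miRNA arm with at least 1 RPM in either library, in control (x axis) and in PD (y axis), both in RPM on a log scale; the solid line marks equal levels and the dashed lines 1.5-fold. The 17 5p arms of the cluster (red) and its 23 3p arms (blue) lie among the 485 other arms (grey), and miR-669c-5p is the single point of the cluster above 1000 RPM.

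miR-669c-5p, which comes from the single hairpin Mir669c, was the dominant member. It had 33610 reads in control and 43651 in PD, or 1781 and 2084 RPM, a ratio of 1.17 (1.15 to 1.19), which is short of 1.5-fold. It made up 83.3% of the reads of the cluster in control and 85.6% in PD and ranked 20 in control and 16 in PD among all 525 arms. Its 32 tags matched no other hairpin with a miRNA name. The opposite strand was almost absent, with 2 reads in control and 4 in PD. Other hairpins of the family differed in which strand prevailed. Mir669h had 143 5p reads in each library next to 55 and 53 3p reads, and Mir669l had 50 and 62 next to 20 and 14. The reads that matched most of the Mir669a copies were mainly of the 3p strand. miR-669a/669o-3p, which also matches Mir669o, had 1330 and 1252 reads, or 70.5 and 59.8 RPM (0.848, 0.784 to 0.917). miR-669a/669p-5p, which also matches Mir669p, had 86 and 176 reads, or 4.56 and 8.40 RPM, a ratio of 1.84 (1.42 to 2.41). Which of these hairpins gave the reads could not be told. These 2 arms match largely the same hairpins, and their ratios lay on opposite sides of 1.

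Further 5p arms of miR-669 were low. miR-669o-5p went from 31 to 57 reads (1.64 to 2.72 RPM, ratio 1.66, 1.05 to 2.65) and miR-669d-5p from 26 to 47 reads (1.38 to 2.24 RPM, ratio 1.63, 0.988 to 2.74). Both were called higher, and the interval of miR-669d-5p included 1. miR-669h-5p was the next most abundant 5p arm of the family after miR-669c-5p in control, though not in PD, and its ratio was 0.901 (0.710 to 1.14). On the 3p side, miR-669f-3p had the highest ratio of the 40 arms with 21 and 44 reads (1.11 and 2.10 RPM, ratio 1.89, 1.10 to 3.34). It was the 1 3p arm called higher. miR-669m-3p went from 53 to 34 reads (2.81 to 1.62 RPM, ratio 0.578, 0.364 to 0.906) and miR-669l-3p from 20 to 14 reads (1.06 to 0.668 RPM, ratio 0.631, 0.295 to 1.31). Both were called lower, the latter with an interval that included 1.

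The miR-467 family was the one in which the summed strands were closest to balance in control. Its 5p share was 44.5% (42.6% to 46.5%) in control and 57.7% (55.9% to 59.4%) in PD. The larger sum thus changed from 3p to 5p, but the hairpins in the sum differed in the strand with more matching reads. The reads that matched the Mir467a copies were more often 3p than 5p in both libraries. These 3p reads also matched Mir467d and the 5p reads also matched Mir467b, so the strand balance of the copies themselves could not be told. Mir467c (32 and 29 3p reads) and Mir467e (86 and 78 3p reads) had more 5p reads in both. Among the named hairpins, Mir467b and the 10 copies of Mir467a share miR-467a/467b-5p. It had 495 reads in control and 961 in PD, or 26.2 and 45.9 RPM, a ratio of 1.75 (1.57 to 1.95). miR-467d-5p had 185 and 322 reads, or 9.80 and 15.4 RPM, a ratio of 1.57 (1.30 to 1.89). These 2 were the called arms with at least 10 RPM in either library. miR-467e-5p had 238 and 306 reads, or 12.6 and 14.6 RPM (1.16, 0.975 to 1.38), and miR-467c-5p 196 and 240 reads, or 10.4 and 11.5 RPM (1.10, 0.910 to 1.34), and both intervals included 1. The 3p strand of the Mir467a copies and Mir467d, miR-467a/467d-3p, had 1304 and 1261 reads, or 69.1 and 60.2 RPM, a ratio of 0.871 (0.806 to 0.942).

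The miR-466 family was read mainly as 3p strands. The 5p share was 9.33% (7.99% to 10.8%) in control and 11.6% (10.1% to 13.3%) in PD. miR-466f-2-3p was its most abundant member, with 591 and 440 reads, or 31.3 and 21.01 RPM. Its ratio of 0.671 (0.592 to 0.760) was just outside the limit of 0.667 for a call. miR-466f-1-3p, with 64 and 43 reads, or 3.39 and 2.05 RPM, was called lower at 0.605 (0.401 to 0.905), and miR-466f-3-3p had 321 and 274 reads, or 17.0 and 13.1 RPM (0.769, 0.652 to 0.906). Part of the reads of miR-466f-2-3p, 24.9% in control and 17.0% in PD, also matched other miRNA hairpins, and tags of the cluster that matched an annotated transcript other than a miRNA hairpin, chiefly Mylk4, summed to 707 and 555 reads. Counted only on tags of its own, Mir466f-2 had 444 and 365 reads, a ratio of 0.741 (0.643 to 0.853). By contrast, miR-466f-2-3p was called lower when tags that matched any annotated transcript outside the cluster hairpins were left out. The same call was made with only tags of transcripts outside the intron left out, a setting chosen after seeing the data.

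A group of miR-466 hairpins shared 1 leading 3p tag, with 92 reads in control and 116 in PD. It led the 3p arm shared by 10 hairpins of Mir466b, Mir466c and Mir466e (361 and 383 reads, 19.1 and 18.3 RPM, ratio 0.956), miR-466p-3p (355 and 371 reads, 18.8 and 17.7 RPM, 0.942) and the 3p arm of Mir466 (351 and 372 reads, 18.6 and 17.8 RPM, 0.955). These 3 pairs of values are largely the same reads, and their intervals included 1. Among the sparse 5p arms of the family, miR-466d/466n-5p had 38 and 61 reads (2.01 and 2.91 RPM, 1.45, 0.949 to 2.23), while the arms of Mir466b, Mir466e and Mir466o lay between 0.681 and 0.735 with intervals that included 1.

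miR-297a/297b/297c-3p, from 4 hairpins, had 386 and 347 reads, or 20.5 and 16.6 RPM (0.810, 0.699 to 0.939). The 3p arm of Mir297a-2 differs from it in sequence and had 81 and 98 reads, or 4.29 and 4.68 RPM (1.09, 0.804 to 1.48). The 5p share of the family was 8.79% (6.48% to 11.6%) in control and 9.18% (6.78% to 12.1%) in PD.

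**Figure D4:**
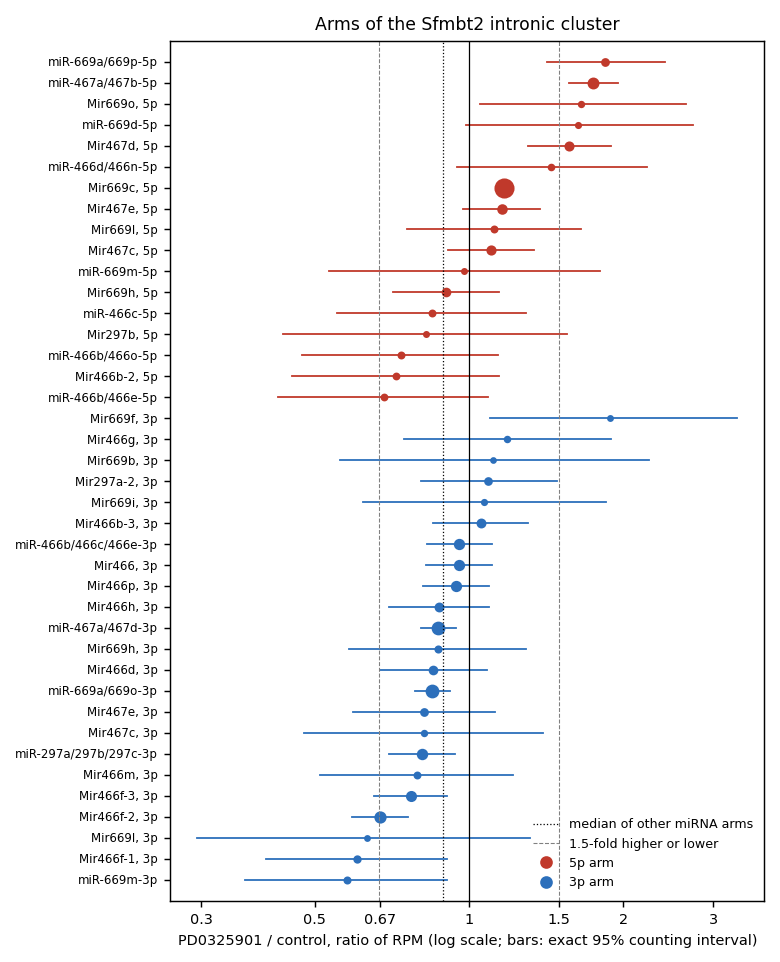
Ratio of PD to control of RPM (x axis, log scale) for the 40 arms of the cluster with at least 1 RPM, 5p in red and 3p in blue, with exact 95% counting intervals; larger points had more reads in control, and an arm of a single hairpin carries the name of the hairpin. The dotted line is the median of other miRNA arms and the dashed lines mark 1.5-fold; 5 of 17 5p arms lie at or above 1.5, against 13 of 267 of other miRNAs, and 17 of 23 3p arms lie below 1, against 149 of 218 of other miRNAs.

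Both strands of a hairpin passed 1 RPM in 16 pairs of arms. The ratio of the 5p strand was above that of its own 3p strand in 11 of the 16, with a median of 1.38 for the ratio of the 2 ratios. In 141 pairs of other miRNAs this was so for 80, with a median of 1.06. The pairs share strands, since the same 3p arm can pair with several 5p arms. The largest separations were in miR-669a/669p-5p with miR-669a/669o-3p (2.17), miR-467a/467b-5p with miR-467a/467d-3p (2.01) and miR-669o-5p with the same 3p arm (1.95). The 5 pairs in which the 5p strand had the lower ratio were all of miR-466b, miR-466c, miR-466e and miR-466o, with 5p arms of 34 to 49 reads.

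Arms were read as ladders of tags with different 3′ ends, and several also had a second start. miR-669c-5p started at the first base of its leading tag in 99.5% of reads in both libraries, and its length forms did not move together. The 24-nt form, with 24491 and 33386 reads, had 1298 and 1594 RPM, a ratio of 1.23 (1.21 to 1.25). The 23-nt form had 3866 and 3995 reads and a ratio of 0.931 (0.891 to 0.973), the 22-nt form 4634 and 5550 reads and 1.08 (1.04 to 1.12), and the 21-nt form 237 and 159 reads and 0.604 (0.491 to 0.742). The longer forms of 25 nt (252 and 390 reads, 1.39, 1.19 to 1.64) and 26 nt (96 and 150 reads, 1.41, 1.08 to 1.84) had the highest ratios. In miR-467a/467b-5p the forms differed more. Its 22-nt form had 316 and 747 reads, a ratio of 2.13 (1.86 to 2.44), while its 21-nt form had 128 and 133 reads, a ratio of 0.936 (0.729 to 1.20). In miR-467d-5p the tags that end in TATATGCG went from 12 to 56 reads, a ratio of 4.20 (2.23 to 8.62). Of these, the tag that starts 1 base after the leading tag had 10 and 56 reads, and the tag with the leading start 2 and 0. Tags that end 1 base earlier in TATATGC went from 147 to 245 reads, or 7.79 to 11.7 RPM (interval of the ratio 1.22 to 1.86).

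Longer forms also gained in other miRNAs. Among arms with at least 100 reads in each library, the mean tag length was greater in PD in 14 of 17 arms of the cluster and in 253 of 302 other arms. The median difference was 0.120 nt in 6 5p arms of the cluster and 0.0705 nt in 159 other 5p arms (quartiles 0.0101 and 0.183), and 0.0298 nt in 11 3p arms of the cluster and 0.0825 nt in 143 other 3p arms (quartiles 0.0180 and 0.271). In other miRNAs, 5p reads of 20 nt were at a ratio of 0.619 and those of 22 to 25 nt between 0.907 and 0.923. The 5p reads of the cluster were at 0.863 for 20 nt, 0.846 for 21 nt, 1.17 for 22 nt, 0.941 for 23 nt and 1.23 for 24 nt. miR-669c-5p weighed heavily in these values, with 24491 of the 24580 24-nt reads in control. Without it the ratios were 0.969, 1.01, 1.59, 1.20 and 1.58 in the same order.

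**Figure D5:**
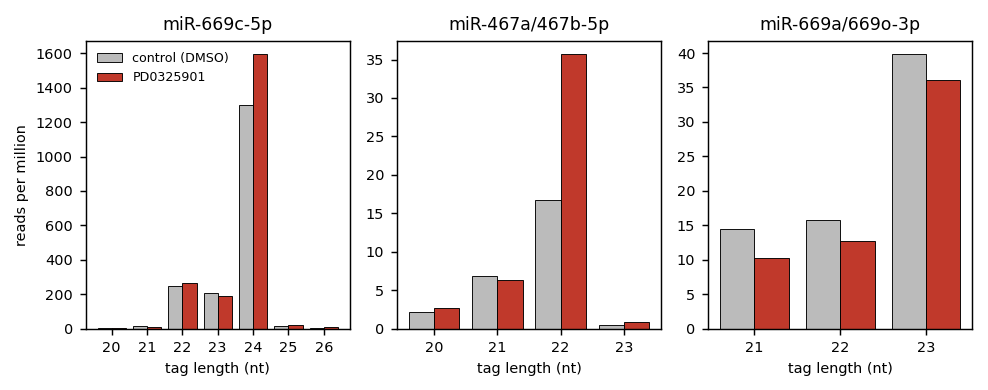
RPM by tag length (nt) in control (grey bars) and PD (red bars) for miR-669c-5p, miR-467a/467b-5p and miR-669a/669o-3p, each with its own linear axis from 0. The 24-nt form of miR-669c-5p and the 22-nt form of miR-467a/467b-5p are higher in PD at ratios of 1.23 and 2.13, while each length shown of miR-669a/669o-3p is lower.

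The 40 arms had 34 different leading tags with 23 different seeds, and 1 of these seeds, TACACAC of miR-466f-2-3p and miR-466f-3-3p, also led an arm outside the cluster, miR-466i-3p. Tags with this seed that were not of the cluster had only 3 reads in control and 2 in PD, so these were largely the same reads. Counted over all tags of the arms, the seed TAGTTGT of miR-669c-5p held 83.1% of the arm reads in control and 85.4% in PD. The seed TATACAT, which led 8 3p arms of miR-297, miR-467 and miR-669, had 1662 and 1506 reads, or 88.1 and 71.9 RPM, a ratio of 0.816 (0.761 to 0.876). The seed CATAACA of miR-669a/669o-3p had 1263 and 1196 reads (0.853, 0.788 to 0.924), and TACACAC 834 and 658 reads (0.711, 0.641 to 0.788). The 5p strands of miR-669c, miR-669o and miR-669a begin 1 base apart in the same stretch of sequence, so that the seed is TAGTTGT in miR-669c, AGTTGTG in miR-669o and GTTGTGT in miR-669a.

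Bases 2 to 7 of miR-467a/467b-5p and miR-467c-5p, AAGTGC, are those of miR-294-3p, miR-291a-3p and miR-302 arms, the ESC-specific cell cycle miRNAs that are known to promote the G1 to S transition. Tags of the cluster with these bases had 688 reads in control and 1235 in PD, or 36.5 and 59.0 RPM, a ratio of 1.62 (1.47 to 1.78). They included tags of miR-467d-5p that start 1 base after its leading tag (69 and 142 reads, 1.85, 1.38 to 2.51). Those of miR-467c-5p alone were at 1.11 (0.875 to 1.41). Tags of other miRNAs with these bases had 4920 and 4306 RPM, a ratio of 0.875 (0.867 to 0.883). These other miRNAs did not move together. Such tags of miR-294-3p were at 0.807 (0.797 to 0.817), and those of miR-302d-3p at 2.58 (1.76 to 3.86, 37 and 106 reads). The cluster thus held 0.736% (0.682% to 0.792%) of the miRNA arm reads with AAGTGC in control and 1.35% (1.28% to 1.43%) in PD. Bases 2 to 8 were AAGTGCC in miR-467a/467b-5p and AAGTGCG in miR-467c-5p, while the most frequent of these seeds outside the cluster, AAGTGCT of miR-294-3p, had 2859 and 2308 RPM. The seed AAGTGCC of miR-467a/467b-5p was also read in tags of miR-292-3p, at 685 and 659 RPM (0.961, 0.938 to 0.984), next to 26.0 and 44.6 RPM for miR-467a/467b-5p (1.72, 1.54 to 1.92). It was also read in tags of miR-290a-3p, at 6.47 and 9.07 RPM (1.40, 1.11 to 1.78), and of miR-293-3p, at 5.83 and 5.87 RPM (1.01, 0.773 to 1.32).

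Which copy of a repeated hairpin gave the reads could not be told for a large part of the cluster apart from miR-669c-5p. Tags that matched 1 named hairpin held 88.7% of the reads of the cluster in control and 90.3% in PD. Without miR-669c-5p such tags had 2183 of 6732 reads in control and 2390 of 7318 in PD. Tags of the cluster with 3756 reads in control and 4204 in PD also matched hairpins of the same intron that have no miRNA name. Of the hairpins, 22 had at least 10 reads of their own in each library. Their ratios ran from 0.708 to 1.77, and the interval lay above 1 for Mir669f, Mir467d, Mir669c and Mir669o and below 1 for Mir466f-2 and Mir466f-3. These 6 hairpins lie outside the repeated block, in which no copy of Mir467a had a tag of its own.

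Hairpins of the same families elsewhere in the genome contributed little. The 10 such hairpins matched 184 reads in control and 121 in PD, of which 155 and 98 were of tags that also matched the cluster. The 1 arm among them with at least 1 RPM, miR-466i-3p, had 139 and 73 reads, or 7.37 and 3.49 RPM (0.473, 0.351 to 0.633). A second large miRNA cluster, the 39 hairpins around Mir379 in the Dlk1-Dio3 region (chr12:109682197-109747960), had 6430 and 4291 RPM, a ratio of 0.667 (0.662 to 0.673). Of its 56 arms with at least 1 RPM, 0 were called higher and 13 lower, with a median ratio of 0.751. The median ratio of the 40 arms of the Sfmbt2 cluster was 0.921.

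The 25 arms of the cluster under 1 RPM had at most 17 reads in control and 19 in PD, and the interval of none of them lay wholly beyond 1.5-fold in either direction. The 3p arm of Mir669a-3, with 9 and 1 reads, was the 1 among them with an interval below 1 (0.00228 to 0.722). Tags of both strands were found for hairpins such as Mir669e, whose 7 and 6 reads of the 5p and 6 and 5 of the 3p strand were too few to rank the strands.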

How the data were processed

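The authors purified small RNA of 18 to 30 nt on a gel, sequenced it and removed adapters and low-quality and short reads. They deposited for each distinct tag its raw read count, without alignment or normalization. mm9 stands in the submitters' processing notes, but the deposited counts carry no coordinates. Tags were matched by sequence to the hairpins of GENCODE M21 (GRCm38), and coordinates are of that annotation. Tags were assigned to the 5p or 3p arm by the loop of the structure folded with ViennaRNA 2.7.2 and had to overlap the leading tag of the arm by 16 nt. A tag that matched several hairpins counted for each arm and once in every sum. From the counts, reads per 1000000 (RPM) of the 18870345 and 20944808 deposited reads, their ratio and exact intervals were computed with Python 3.11.15 and SciPy 1.17.1, and the procedure was tested on simulated data. With 1 library per treatment, 3 reads set the floor and no test was run. R 4.3.3 with edgeR 4.0.16 and DESeq2 1.42.0 gave scaling factors only. Arms with at least 10 RPM, or at least 1 RPM and 1.5-fold, were named with values. The members, lists and rules were chosen with earlier results of these data known. The microarray data were not analysed here.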

Additional observations from a re-analysis of the deposited data

Results flagged for a closer look

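The intron of Sfmbt2 also holds 48 hairpins that the annotation names as Gm genes, which are outside the 71 named hairpins, and 38 of them were matched by at least 1 tag. Most of those tags also matched a named hairpin of the cluster. The tags that matched a Gm hairpin of the intron and no named hairpin had 22 reads in control and 35 in PD (29 tags), which is above the 3 reads that a count of 0 allows.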

How the results depend on the processing

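No paired analysis was possible because each treatment had 1 library, and for the same reason no library could be left out. The ratio of the cluster was 1.31 scaled to miRNA-matching reads, 1.38 to reads of 20 to 24 nt, 1.22 by TMM and 1.26 by DESeq2 size factors (which were 1 in both libraries, so that no scaling was applied), and those of the 5p sum 1.35, 1.43, 1.26 and 1.31. The 3p sum was at 0.968, 1.02, 0.902 and 0.937, and the 3p sums of miR-297, miR-467 and miR-669 turned to 1.04, 1.06 and 1.04 with reads of 20 to 24 nt, because the change of scale moves every ratio alike. With the leading tag of each arm alone the cluster was at 1.20, the 5p sum at 1.24 and the 5p share in PD at 92.6%. With tags of no transcript other than the hairpins of the cluster, the ratio was 1.16 and the share 97.5%. The 5p sum of miR-467 was then at 1.26 (1.14 to 1.40) and that of miR-466 at 1.46 (1.03 to 2.08). Of 27 arms compared, 4 were called higher, and miR-467a/467b-5p and miR-669a/669p-5p were not among them. This setting also drops tags shared with Gm hairpins of the same intron. The share was 92.1% for tags with the start of the leading tag and 91.1% for tags of 21 nt or more. Chosen after seeing the data, tags of no transcript outside miRNA hairpins of the intron gave a share of 91.8%. Under this setting the 5p sum of miR-467 was at 1.48 (1.37 to 1.60). Of 39 arms compared, the same 6 were called higher, miR-467a/467b-5p and miR-669a/669p-5p included. Leaving out miR-669c-5p, also chosen after seeing the data, gave a cluster ratio of 0.979, a 5p ratio of 1.38 and a share of 35.5%. That cluster ratio of 0.979 became 1.12, 1.19, 1.05 and 1.09 under the 4 other scalings in the order above. Of arms called higher there were 12 without a filter, 2 at 10 RPM and 0 at 2-fold, instead of 6. Of arms called lower there were 1 by miRNA-matching reads, 0 by reads of 20 to 24 nt, 1 by DESeq2, 6 with 1 start, 6 without a filter, 0 at 10 RPM, 0 at 2-fold and 5 with tags of the intron alone, instead of 3. The cause of the differences that do not follow from the construction of an alternative was not tested. Without replicates, depth limits only the counting error, and 2-fold differences of arms under 1 RPM were mostly not resolved.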

Other observations

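Some arms were read with 2 starts, which gives them 2 seeds. miR-467d-5p started at the first base of its leading tag in 62.7% of reads in control and 55.6% in PD, and 1 base later in 37.3% and 44.1%. The later start had 69 and 142 reads, a ratio of 1.85 (1.38 to 2.51), and the earlier start 116 and 179 reads, a ratio of 1.39 (1.09 to 1.77). miR-467c-5p started 1 base before its leading tag in 34.2% of reads in control and 33.8% in PD. miR-467e-5p started 1 base later in 26.9% and 21.2%, with 64 and 65 reads for the later and 174 and 241 reads for the earlier start.

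The 3p arm shared by Mir466b, Mir466c and Mir466e divided its reads between the start of the leading tag, with 152 and 184 reads, and the base before it, with 178 and 172 reads. Of all tags of the cluster, 21 lay in neither arm and had 71 reads in control and 81 in PD. The opposite strand of the hairpins was matched by 1 tag with 1 read in control.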
